A study of Mus musculus with 6 samples.

Results

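Defa24, Defa30, Defa39, Defa38, Defa21, Defa22 and Defa29 are the 7 α-defensin genes among the 12 genes with the highest mean CPM (the count of a gene for every 1000000 counts of its library) in sorted mouse Paneth cells. They were picked on that mean over all 6 libraries of the series, out of 55414 genes in the count table and out of the 28 protein-coding α-defensin genes that the study treats as its core set, so their high level and their order by mean CPM are what chose them and are described without a test. The cells were sorted by FACS as Paneth cells from the small intestine of wild-type (WT) mice. In the standard diet group (3 libraries) mice ate a control chow, and in the zinc depleted group (3 libraries) they ate zinc depleted chow, for 7 weeks in both. Every mouse of both groups had also been given tumor necrosis factor (TNF) 3 h before sampling, so all values below come from TNF-treated animals and the response to TNF was not measured. The paper, which lists this series among its data, gives C57BL/6J as the strain and describes its samples as cells of individual mice. The age and sex of the mice and the dose of TNF are not stated for this series in the sources used here. The labels number the replicates without naming animals. The tests therefore set the difference between diets against the spread between these libraries.

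Paneth cells sit at the base of the small intestinal crypts and secrete antimicrobial products from large granules. The α-defensins, called cryptdins in the mouse intestine, are small cationic peptides that are made as prepropeptides. The signal peptide is removed during secretion, and in mice the metalloproteinase MMP7 (matrilysin) cuts off the propiece to release the active peptide. In the typical α-defensin, cysteines pair into disulfide bonds that hold the fold. A second mouse class, the cryptdin-related sequences, shares the signal peptide and propiece but carries short repeats that contain cysteine. Paneth cell granules are rich in zinc, which is loaded by the transporter ZnT2, the product of Slc30a2.

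The 7 genes fell into both classes, and the end of each coding sequence shows this. In the GRCm39 reference with GENCODE annotation, all 7 lie on chromosome 8 and have 2 exons in the canonical transcript. The last coding exon, read from its first whole codon to the codon before the stop, is printed in lower case with each in-frame cysteine codon (TGC or TGT) in capitals. Defa24 (chr8:22225286-22225390, plus strand) and Defa30 (chr8:21625412-21625516, plus strand) have 6 cysteine codons in this exon, at the same places.
Defa24: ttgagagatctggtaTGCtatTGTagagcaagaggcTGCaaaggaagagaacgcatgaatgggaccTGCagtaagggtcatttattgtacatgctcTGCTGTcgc
Defa30: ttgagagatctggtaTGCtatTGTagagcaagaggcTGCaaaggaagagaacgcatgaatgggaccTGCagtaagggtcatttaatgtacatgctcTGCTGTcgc
Defa21 (chr8:21516332-21516436, plus strand) and Defa22 (chr8:21653064-21653168, plus strand) also have 6, and their exon ends in a run of arginine codons.
Defa21: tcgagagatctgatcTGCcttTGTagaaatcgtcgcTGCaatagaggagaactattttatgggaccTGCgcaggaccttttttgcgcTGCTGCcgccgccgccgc
Defa22: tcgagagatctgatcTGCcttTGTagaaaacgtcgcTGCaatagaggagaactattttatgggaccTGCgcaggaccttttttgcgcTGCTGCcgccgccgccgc
Defa39 (chr8:22192647-22192820, minus strand), Defa38 (chr8:21585093-21585266, minus strand) and Defa29 (chr8:21816018-21816191, minus strand) have 11 cysteine codons, most of them spaced by a pair of other codons.
Defa39: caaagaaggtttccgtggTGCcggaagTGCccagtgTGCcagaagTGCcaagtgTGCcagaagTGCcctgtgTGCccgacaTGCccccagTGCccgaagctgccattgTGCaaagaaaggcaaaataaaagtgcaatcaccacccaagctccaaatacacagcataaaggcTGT
Defa38: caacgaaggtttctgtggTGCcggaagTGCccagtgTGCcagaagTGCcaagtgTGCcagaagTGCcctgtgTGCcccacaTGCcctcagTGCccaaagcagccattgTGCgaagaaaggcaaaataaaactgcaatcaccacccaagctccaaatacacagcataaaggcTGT
Defa29: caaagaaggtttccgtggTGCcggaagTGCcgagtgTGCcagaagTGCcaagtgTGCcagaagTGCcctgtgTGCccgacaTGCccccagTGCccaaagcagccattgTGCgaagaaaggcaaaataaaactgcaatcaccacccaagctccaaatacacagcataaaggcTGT
The first 4 genes encode 93 residues with 6 cysteines in the typical spacing, and the last 3 encode 116 residues with 11 cysteines and 8 repeats of a cysteine and 2 other residues.

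Each member has a near copy among the others. Defa24 and Defa30 differ at 4 coding bases and at the residues A52S and L87M (the Defa24 residue first, positions counted from the first methionine), which is 97.8% protein identity. Defa21 and Defa22 differ at 2 coding bases and at D38E and N68K (the Defa21 residue first). Defa38 and Defa29 differ at 9 coding bases and at A11V, L63P and P69R (the Defa38 residue first). Over all 21 pairs of the 7 genes the protein identity ranged from 46.8% to 97.8%. The class follows the strand: 5 of the 28 core genes lie on the minus strand and all 5 carry the repeats, against 0 of the 23 on the plus strand. Of these 5, Defa39, Defa38 and Defa29 are among the 7, whereas Defa42 and Defa43 had mean levels of 4.16 and 2.76 CPM.

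The near identity limits how a read can be given to a gene. Of the positions where a 75-base read can start in the canonical transcript, the share at which the read matches no other annotated transcript was 93.4% for Defa24, 86.6% for Defa39, 81.2% for Defa30, 69.6% for Defa29, 69.0% for Defa38, 43.5% for Defa22 and 43.2% for Defa21. Defa21 shared 56.8% of its start positions with Defa22. The members thus had from 43.2% to 93.4% specific positions, while the other 21 core genes ranged from 0% to 86.5% and 10 of them, Defa42 and Defa43 included, had none. The 10 genes without a specific position summed to 9.23 CPM on average. How the counting program treated reads with several matches is not stated in the sources used here. The values of single α-defensins are therefore uncertain, among the 7 most of all those of Defa21 and Defa22. The same limit applies to the total of the core genes, to shares of that total and to the choice of the 7. The part of read assignment in the rank order, in these shares and in the choice of the 7 was not tested.

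The 7 genes are spread over a locus of 709.9 kb (chr8:21515557-22225490, GRCm39). Defa21, the first of the 28 core genes along the chromosome, starts the locus, and distances are given from its start. Positions here are the lowest coordinate of the annotated span, which for the minus strand genes Defa38, Defa29 and Defa39 is where the gene ends. Defa38 lies 69.4 kb, Defa30 93.7 kb, Defa22 136.7 kb and Defa29 300.3 kb after it on this measure. Defa39 follows at 677 kb, and Defa24 at 708.9 kb is the last of the 28. The near-identical Defa24 and Defa30 are therefore 615.3 kb apart by this measure, with an annotated span of 16367 bases for Defa30. The annotated span of Defa30 also overlaps the pseudogene Defa-ps4 through an upstream exon. The spans of Defa39, Defa38 and Defa29 overlap other annotated genes as well (Gm22447 and Gm7869, Gm24568, and Gm23561).

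**Figure D1:**
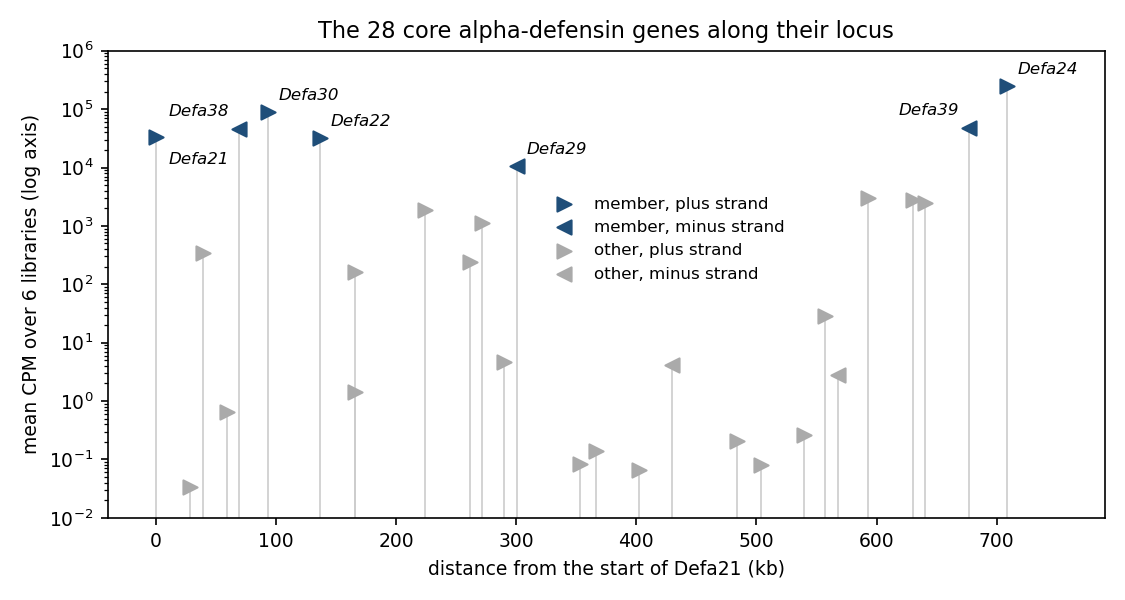
Mean CPM over the 6 libraries (log axis) of each of the 28 core α-defensin genes against the distance of its lowest annotated coordinate from that of Defa21 (kb). Blue marks are the 7 members and grey marks the other 21 genes, and an arrow to the right is the plus strand. All members lie at 10561 CPM or above, with 5 within 300.3 kb of the start and Defa39 and Defa24 at 677 kb and 708.9 kb, and the genes between them reach at most 2970 CPM (Defa26).

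Library totals ranged from 6139397 to 12772373 counts. At this depth counting error was small for these genes: the lowest count was 60115 (Defa29) and the highest 3903775 (Defa24), and the widest Wilson 95% interval of a member's share was ± 0.0324 percentage points of the library. Such intervals cover counting error only. The TMM scaling factors of edgeR, which set libraries to a common level of most genes, ranged from 0.898 to 1.73 in the standard diet group and from 0.46 to 1.46 in the zinc depleted group. The cells carried the markers of their label. The 8 Paneth markers on the list (Lyz1, Itln1, Mmp7, Ang4, Mptx2, Reg3g, Pnliprp2 and Clps) were all counted, with a summed level of 211189 to 253092 CPM in standard diet and 258009 to 285908 CPM. Cd24a and Kit, whose proteins the study used in its sort gate, summed to 375 to 1707 CPM. Of other cell types, 6 goblet markers summed to at most 12022 CPM, 5 tuft markers to 476 CPM, 7 enterocyte markers to 132 CPM, 6 enteroendocrine markers to 81.8 CPM, 5 immune markers to 8.47 CPM (Cd3e at 0) and 4 endothelial and erythroid markers to 2.42 CPM (Cdh5 at 0). The 4 stem cell markers (Lgr5, Olfm4, Ascl2 and Smoc2) summed to 1172 to 3567 CPM in standard diet and 472 to 565 CPM, and the 4 proliferation markers to 53.3 to 146 and 30.1 to 45.7 CPM, none of them at 0. The groups did not overlap for the Paneth and the endothelial and erythroid lists, where zinc depleted libraries were higher, nor for the stem and proliferation lists, where they were lower. The endothelial and erythroid sums were only 0.136 to 2.42 CPM. All these sums are CPM by total counts and follow mostly the most abundant genes of a list. Over the 6 libraries, Lyz1 of the Paneth list averaged 158482 CPM and Spink4 of the goblet list 5425 CPM. By total counts, 13.1% of the 9749 genes tested for diet had a log2 fold change above 0. The median was -0.66, so lower values were common. Zinc depleted libraries lay entirely above for 0.554% of these genes, and the share entirely below was not counted. The 18S rRNA gene Rn18s-rs5 took 2.56%, 2.91% and 1.27% of the counts in standard diet and 0.522%, 0.884% and 0.883% in zinc depleted libraries, also without overlap. The part of these differences in the diet values below was not tested.

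Defa24 was the most abundant transcript in each of the 6 libraries. It took 21.3%, 21.3% and 24.8% of all counts in the standard diet libraries (replicates 1, 2 and 3) and 21.8%, 28.2% and 30.6% in the zinc depleted libraries. Zinc depleted replicate 1 lay among the standard diet libraries, so the groups overlapped. Defa30, its near copy, came next after Lyz1 (the lysozyme of Paneth cells) in every library. It took 9.55%, 7.84% and 11.4% in standard diet and 8.09%, 7.09% and 8.62% in zinc depleted libraries. Here the highest values were both in standard diet libraries, but replicate 2 of that group lay within the zinc depleted range.

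The cryptdin-related Defa39 and Defa38 followed at similar levels. Defa39 took 4.59%, 5.30% and 4.43% of the counts in standard diet and 3.99%, 4.33% and 6.12% in zinc depleted libraries. Zinc depleted replicates gave both its lowest and its highest value. Defa38 took 4.83%, 4.71% and 5.20% in standard diet and 4.41%, 3.99% and 4.72% in zinc depleted libraries, with an overlap at one value of each group only. Defa29, the last of the class, was the lowest of the 7 and had the steadiest share of the library. It took 1.13%, 0.979% and 1.04% in standard diet and 1.03%, 1.08% and 1.07% in zinc depleted libraries, a coefficient of variation of this share of 4.88% over the 6 libraries against 8.81% to 34.8% for the other 6 members. As a share of the family counts, used further down, the coefficient was 12.1% for Defa29 and lowest for Defa24, at 5.05%. All zinc depleted values of Defa29 lay inside the standard diet range.

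Defa21 and Defa22 varied the most. Defa21 took 2.07%, 2.30% and 3.16% of the counts in standard diet and 3.21%, 5.20% and 4.08% in zinc depleted libraries, so every zinc depleted library lay above every standard diet library, though replicate 3 of the one and replicate 1 of the other were close. Defa22 took 1.94%, 2.24% and 3.52% in standard diet and 3.17%, 4.40% and 3.83% in zinc depleted libraries, and overlapped through standard diet replicate 3. Together the 7 genes held 45.5%, 44.6% and 53.6% of all counts in the standard diet and 45.7%, 54.3% and 59.0% in the zinc depleted libraries, and the groups overlapped.

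**Figure D2:**
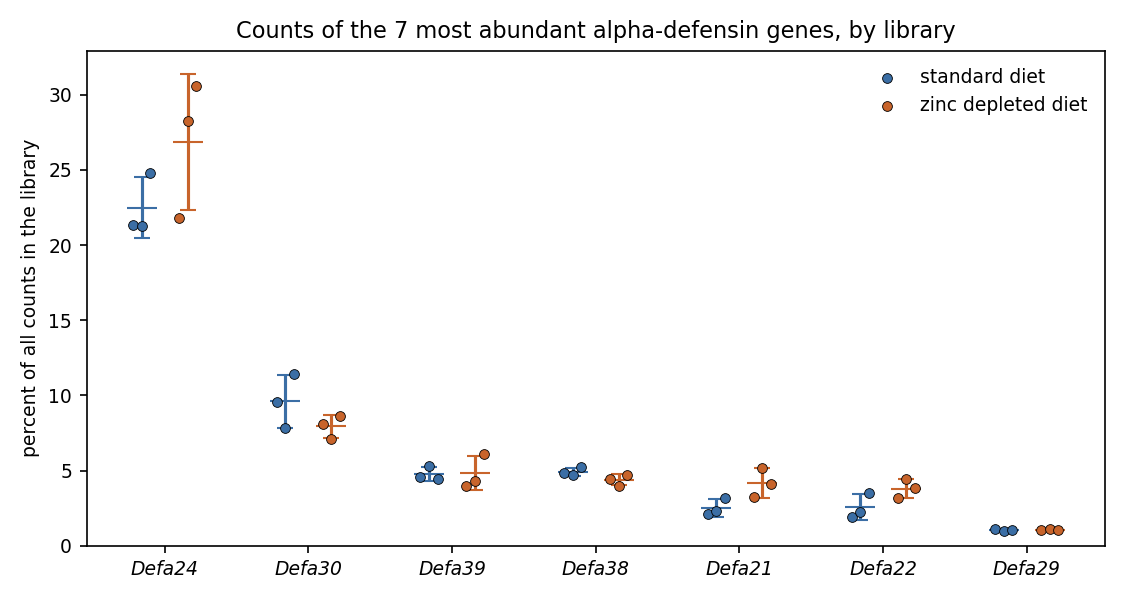
Percent of all counts of the library in each of the 7 members, with a point for each library, the mean as a horizontal line and ± SD (n = 3 libraries) as bars. Defa24 reaches 30.6%, Defa29 stays near 1%, and Defa21 is the one member in which the zinc depleted points all lie above the standard diet points.

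By mean CPM over the 6 libraries, Defa24 stood at 246749 (rank 1 of all genes), Defa30 at 87652 (rank 3), Defa39 at 47938 (rank 5), Defa38 at 46437 (rank 6), Defa21 at 33376 (rank 7), Defa22 at 31845 (rank 8) and Defa29 at 10561 (rank 12). The other genes of the first 12 were Lyz1, the lectin Itln1, the angiogenin Ang4, the 18S rRNA gene Rn18s-rs5 and the pentraxin Mptx2. Just inside the limit was Defa29, and just outside it stood Mmp7 with 5725 and Spink4 with 5425 CPM. The next α-defensin, Defa26, was at 2970 CPM (rank 15), 3.56-fold below Defa29. Some steps in the order held in every library. Defa24 exceeded Defa30 by 2.18-fold to 3.98-fold in all 6, Defa30 exceeded Defa39 in all 6, and Defa22 exceeded Defa29 in all 6. Defa39 exceeded Defa38 in 3 of 6 libraries, Defa38 exceeded Defa21 in 5 of 6 and Defa21 exceeded Defa22 in 5 of 6, so these neighbours were not separated beyond the spread between libraries. In all, 15 of the 21 pairs kept their order in all 6 libraries.

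Transcript length changed the middle of the order. Per kilobase of the canonical transcript, Defa38 (transcript of 351 bases) took rank 3, above Defa39 (507 bases), and Defa24 was 4.42-fold and 6.18-fold above them. That canonical transcript of Defa38 ends 3 bases after its coding sequence. Per kilobase of all annotated exons, a scale added after the values were seen, Defa39 kept rank 3 and Defa21 and Defa38 were level, 7.34-fold and 7.35-fold below Defa24. Per specific 75-base start, Defa39 came at rank 6 of the 7, and Defa5, with 7 specific starts, came between Defa22 and Defa39. On that scale Defa29 took rank 10 of the 18 core genes with any specific start. Per specific 100-base start, Defa5 fell to rank 8 of these genes, below Defa39 at rank 6. Both scales divide all counts of a gene by its specific starts, and whether those counts include shared reads is not known. Defa24 was first and Defa30 second on all 5 scales, with Defa24 2.50-fold to 3.49-fold above Defa30.

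Relative to the family, the 7 genes made up 96.9% to 98.2% of the counts of the 28 core α-defensins in each library. The other 21 genes shared the remaining 1.80% to 3.10%. These shares hold for the counts as assigned here. In a typical experiment of the paper, quantified with Salmon, Defa24 was also first, but Defa3, Defa2, Defa23 and Defa20 came next, above Defa30. Here the mean levels of Defa3, Defa2, Defa23 and Defa20 were 241, 0.084, 0.0334 and 0.21 CPM, in that order. Unit and annotation thus differ as well, and the part of these, of the samples and of read assignment in this difference was not tested. Defa24 alone took 46.1%, 46.8% and 44.9% of the family in standard diet and 46.8%, 50.7% and 50.5% in zinc depleted libraries. Defa30 took 20.6%, 17.2% and 20.6% in standard diet and 17.4%, 12.7% and 14.3% in zinc depleted libraries. The sum of these 2 near-identical genes was steadier than either: 66.7%, 64.0% and 65.5% in standard diet and 64.2%, 63.4% and 64.8% in zinc depleted libraries. Defa21 took 4.48%, 5.06% and 5.72% of the family in standard diet and 6.88%, 9.33% and 6.74% in zinc depleted libraries. Defa22 took 4.19%, 4.91% and 6.37%, and 6.81%, 7.90% and 6.33%. Together Defa21 and Defa22 made up 8.68%, 9.97% and 12.1% of the family in standard diet and 13.7%, 17.2% and 13.1% in zinc depleted libraries. The cryptdin-related class made up 22.8%, 24.1% and 19.3%, and 20.3%, 16.9% and 19.7%.

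**Figure D3:**
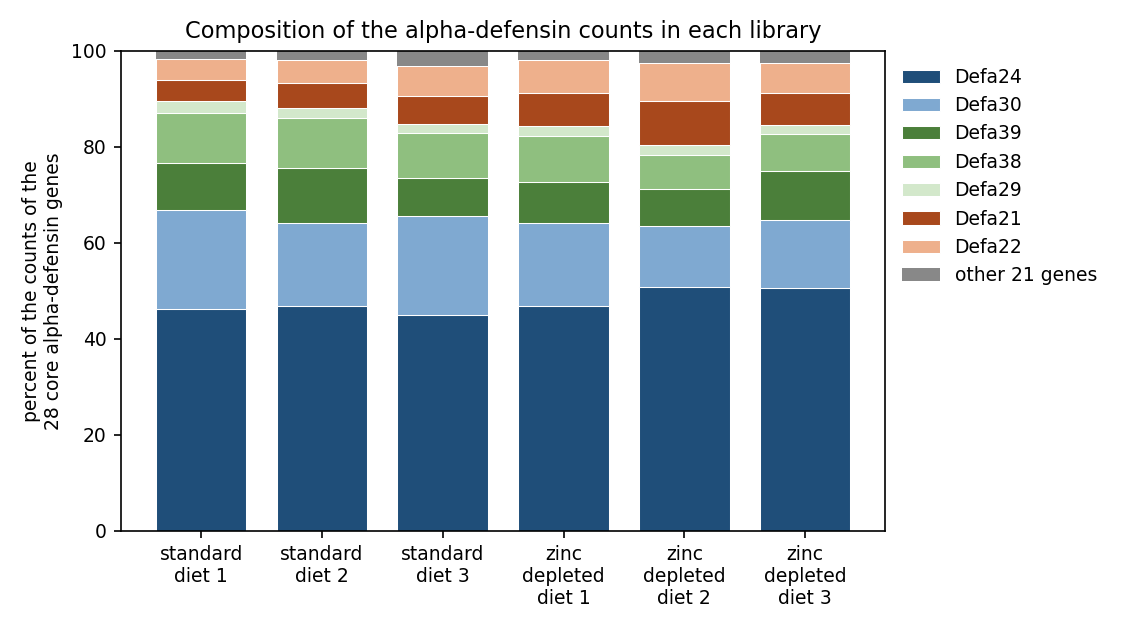
Percent of the counts of the 28 core α-defensin genes taken by each member and by the other 21 genes together, with a bar for each library. Blue segments are Defa24 and Defa30, green segments the cryptdin-related Defa39, Defa38 and Defa29, and brown segments Defa21 and Defa22, which run from 8.68% to 12.1% in standard diet and from 13.1% to 17.2% in zinc depleted libraries.

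The share of the family in each of the 7 genes was compared between diets by an exact two-sided permutation test, which with 3 libraries against 3 cannot give a p below 0.1, so no difference could pass 0.05 and the 7 unadjusted values are given as such. The mean share of Defa21 was 5.09% ± 0.619 (SD, n = 3) in standard diet and 7.65% ± 1.45 (SD, n = 3) in zinc depleted libraries, with the smallest exact p the design allows, 0.1. Counts relative to the family that did not overlap with zinc depleted above were found for 0.328% of the 9749 genes tested for diet, against 1 of the 7 members (Defa21). Defa24 was at 45.9% ± 0.972 and 49.3% ± 2.20 (SD, n = 3 each, exact p = 0.2), and Defa30 at 19.5% ± 1.96 and 14.8% ± 2.36 (SD, n = 3 each, exact p = 0.2). Defa22 was at 5.16% ± 1.11 and 7.01% ± 0.805, and Defa38 at 10.1% ± 0.569 and 8.14% ± 1.19 (SD, n = 3 each, exact p = 0.2 for both). Defa39 and Defa29 had an exact p = 0.5 each. As shares of a whole they are not independent of each other.

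Ratios between members need no scaling of libraries and carried the same contrast. The count of Defa24 was 10.3, 9.26 and 7.85 times that of Defa21 in standard diet and 6.80, 5.43 and 7.49 times in zinc depleted libraries. The ratio of Defa30 to Defa21 was 4.60, 3.41 and 3.60 in standard diet and 2.52, 1.36 and 2.11 in zinc depleted libraries, and that of Defa38 to Defa21 was 2.33, 2.05 and 1.65 against 1.38, 0.767 and 1.16. In each of these the groups did not overlap, and the zinc depleted libraries were the lower. Of the 21 pairs of members, 7 had ratios that did not overlap between the diets, and 6 of these 7 involved Defa21 or Defa22. The exception was Defa24 over Defa38, at 4.42, 4.52 and 4.77 against 4.94, 7.08 and 6.48. Many of the 21 pairs contain Defa21 or Defa22, so a large part of any such pairs would involve them. The ratio of Defa21 to Defa22 was close to constant, so a pair with the one largely repeats the pair with the other. Among all pairs of the 9749 tested genes, 11.2% did not overlap. The 21 pairs share 7 genes and are not independent, and none of them can reach an exact p below 0.1.

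**Figure D4:**
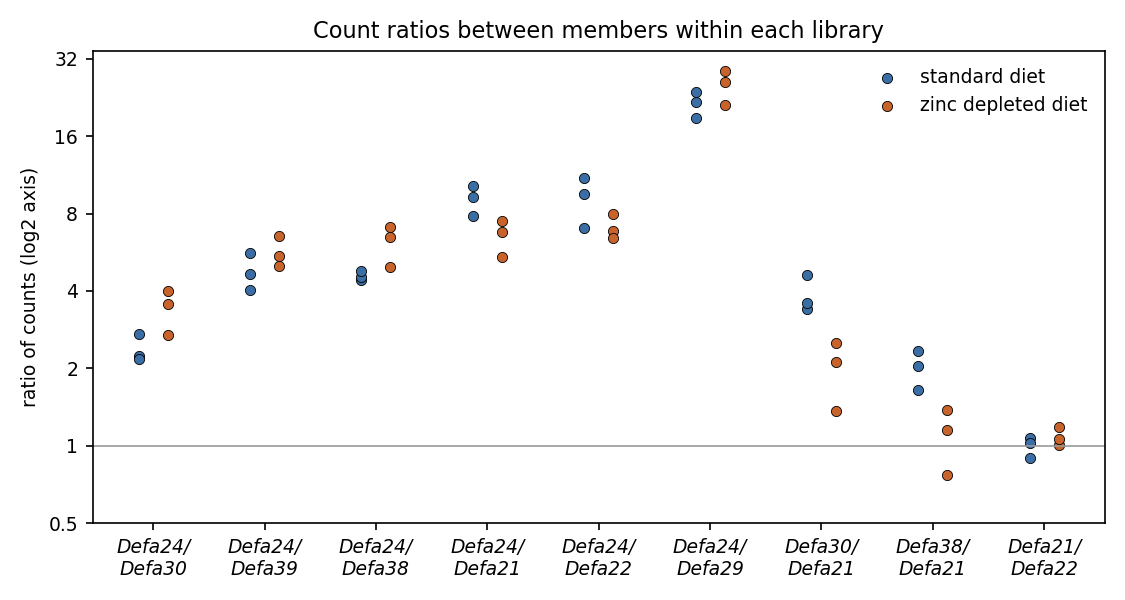
Ratio of counts between members within each library (log2 axis), with a point for each of the 3 standard diet and 3 zinc depleted libraries. Ratios of Defa24, Defa30 and Defa38 to Defa21 lie lower in every zinc depleted library, Defa24 to Defa38 lies higher, and Defa21 to Defa22 stays between 0.897 and 1.18 in all 6.

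Defa21 and Defa22 kept the closest ratio of any 2 members. Their counts stood at 1.07, 1.03 and 0.897 in standard diet and 1.01, 1.18 and 1.07 in zinc depleted libraries, and the SD of the log2 ratio was 0.13, the lowest of the 21 pairs, whose highest was 0.63 (Defa30 and Defa21). They are also the members with the most shared start positions, as given above, so a shared level and shared reads cannot be told apart here. Their promoter windows in RefSeq (GRCm38.p6), the 250 bases before the annotated start, are identical at all 250 bases. The 120 bases next to the start are printed for Defa21 (chr8:21025425-21025544, plus strand) and are the same for Defa22 (chr8:21162157-21162276, plus strand), with the matches to TATAAA and to CTTTGAT, read on the other strand, in capitals.
Defa21: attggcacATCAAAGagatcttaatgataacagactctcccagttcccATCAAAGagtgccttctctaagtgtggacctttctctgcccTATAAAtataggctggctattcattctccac
CTTTGAT is a core sequence bound by TCF factors, through which Wnt signaling acts in crypts. It was found 2 times in this window and in 3.20% of 32851 promoter windows of the same length, and TATAAA in 12.4%, both strands counted. The table held windows for 4 members. TATAAA occurred in all 4 (Defa21, Defa22, Defa30 and Defa38) and CTTTGAT in 3 (not Defa38), while CTTTGTT (5.03% of windows) and the metal response motifs TGCGCNC (12.5%) and TGCACNC (10.4%) occurred in 0 of the 4. The motifs do not overlap each other in these windows, and a match describes letters only.

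None of the 7 genes passed the test for diet. The edgeR quasi-likelihood test called 0% of 9749 genes at an adjusted p under 0.05, and 0 of the 7 members. At an unadjusted p under 0.05 it had 645 genes (6.62%; 252 higher and 393 lower in zinc depleted libraries), again with 0 members. DESeq2 called 6 genes and limma-voom 0, with no member in either. The log2 fold change, zinc depleted over standard diet with TMM scaling, was 1.21 for Defa24 (SE 0.91, adjusted p = 0.714), 0.59 for Defa30 (SE 0.80, adjusted p = 0.829) and 1.62 for Defa21 (SE 0.79, adjusted p = 0.681). It was 1.41 for Defa22, 1.04 for Defa39, 0.93 for Defa29 and 0.74 for Defa38, with adjusted p from 0.681 to 0.779. All 7 estimates lay above 0, as did 50% of all tested genes, and the TMM-scaled groups overlapped for each of the 7, while 3.51% of all genes had zinc depleted libraries entirely above.

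The estimates depended on the scaling. With total counts only, the median of all tested genes moved from 0.00 to -0.66 on the log2 scale and 13.1% of genes lay above 0. On that scale 5 of the 7 members were above 0: Defa21 at 0.73 (SE 0.25, unadjusted p = 0.0173 and adjusted p = 0.685 in edgeR), Defa22 at 0.57, Defa24 at 0.26, Defa39 at 0.01 and Defa29 at 0.01. At an unadjusted p under 0.05 this scaling had 593 genes, 8 of them higher in zinc depleted libraries, and Defa21 was the member among them. Defa38 at -0.17 and Defa30 at -0.27 changed sign. CPM by total counts did not overlap, with zinc depleted above, for 0.554% of all genes and for 1 member, Defa21. Shares of library counts had an exact permutation p = 0.1 for Defa21 (n = 3 libraries per group), the smallest possible, and from 0.2 to 1 for the other 6. A gene that takes a large part of a library lowers the CPM of all others, so a total-count value of one member is a share and not an amount per cell, and in bulk samples fewer cells of a type and less RNA per cell cannot be told apart.

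**Figure D5:**
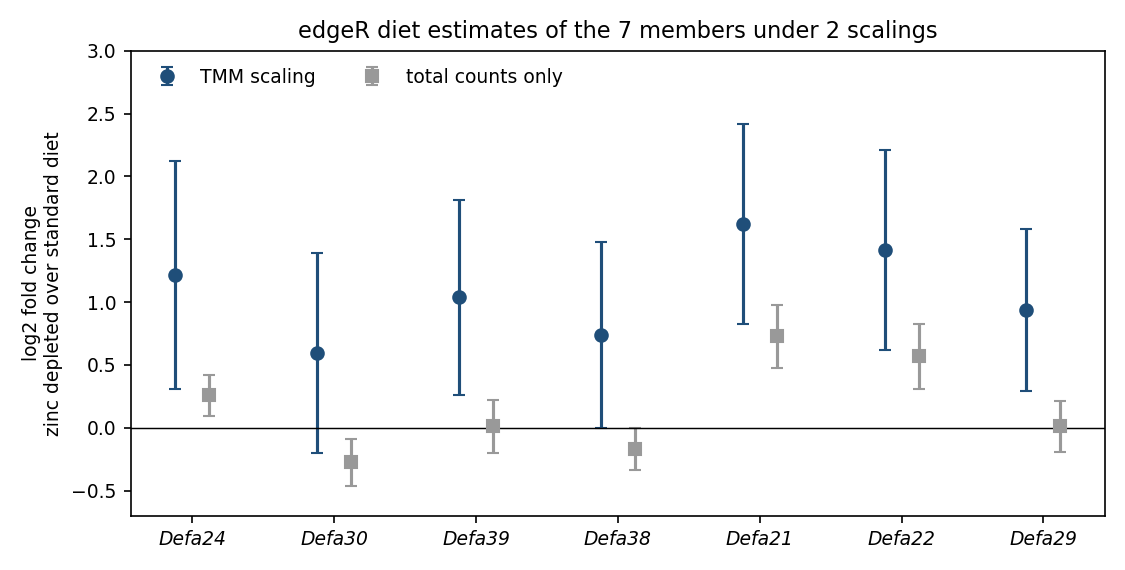
Log2 fold change (zinc depleted over standard diet) of each member from edgeR with TMM scaling (circles) and with total counts only (squares), with ± SE (3 libraries per group). Defa21 and Defa22 have the highest estimates on both scales, Defa30 and Defa38 lie on opposite sides of 0 in the 2 fits, and no estimate passed the adjusted threshold.

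Of the other 21 core α-defensins, 13 passed the filter on low counts and 0 were called. Their median log2 fold change was 1.18 with TMM scaling, against 1.04 for the 7 members and 0.00 for all genes, and 12 of the 13 lay above 0 (the exception was Defa17 at -0.30). With total counts only, the medians were 0.24 for these 13 and 0.01 for the members, and 10 of the 13 lay above 0. Among the 13, 5 had an unadjusted p under 0.05, as did 6.62% of all tested genes. These were named after their values were seen and are Defa34, Defa35, Defa40, Defa41 and Defa42, with adjusted p = 0.681 each in edgeR.

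A list of 18 genes for the making of α-defensins covered processing, the secretory pathway and the factors of Paneth cell fate. All 18 were tested, 0 were called and 13 lay above 0, and the median estimate was 0.34 on the log2 scale with TMM scaling and -0.11 with total counts only. Mmp7, the activating protease, stood at 5779, 4741 and 4806 CPM in standard diet and 5168, 6605 and 7249 CPM in zinc depleted libraries. Its estimate in edgeR was 1.32 on the log2 scale (SE 0.65, adjusted p = 0.681), near that of Defa24. Slc30a2, the zinc transporter of the granules, stood at 52.1, 47.4 and 25.7 CPM in standard diet and 75.6, 22.1 and 19.7 CPM in zinc depleted libraries, and the groups overlapped on this scale. With TMM scaling its zinc depleted libraries lay above, as for Hspa5 and Pdia4 of the list and 3.51% of all tested genes, with an estimate of 0.52 on the log2 scale (SE 0.35, edgeR adjusted p = 0.707). The endoplasmic reticulum chaperone Hspa5 and the disulfide isomerase Agr2 had an unadjusted p under 0.05 and were named after their values were seen, with log2 fold changes of 1.03 and 1.70 (edgeR adjusted p = 0.681 each). Of the transcription factors of Paneth and secretory cell fate, Gfi1, Bhlha15 and Atoh1 had estimates of -1.68, -1.16 and -0.77, and Spdef, Tcf7l2 and Sox9 of 0.40, 0.31 and 0.23, with edgeR adjusted p from 0.681 to 0.882.

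The genes that kept the most constant ratio to Defa24 over the 6 libraries were looked for among 4051 genes other than α-defensins with a mean of at least 10 CPM. The measure was the SD of the log2 count ratio to Defa24, whose median over these genes was 1.04. The lowest were Rnf7 (0.07), Spcs1 (0.10), Nme1 (0.12), Fam3d (0.12) and Cycs (0.13). Spcs1 encodes a subunit of the signal peptidase complex, and Cycs encodes cytochrome c. Rnf7 had a mean of 22.2 CPM and ranged from 0.0849 to 0.0939 counts for every 1000 counts of Defa24. Among the members the same measure was 0.22 for Defa29, 0.24 for Defa39, 0.29 for Defa38, 0.30 for Defa22, 0.33 for Defa21 and 0.35 for Defa30. From 52 to 212 of the 4051 genes thus followed Defa24 more closely than its fellow members did, and Defa30, its nearest copy, was the furthest. With only 6 libraries and no test, this is a description.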

How the data were processed

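The authors deposited raw counts per gene for 6 libraries of FACS-sorted Paneth cells, read single-end on an Element AVITI. The submitters' processing notes name FastQC, Trimmomatic 0.39, STAR 2.7.10a, DESeq2 and mm39. Not given in the sources used here were the counting program, its use of strand and its handling of reads with several matches. The design text speaks of 4 replicates per group, and the 3 per group in the labels were analysed. Identifiers were matched to GENCODE M39 on GRCm39 (54749 of 55414 found), from which lengths, sequences and specific read starts (75 and 100 bases) were computed. Library totals were 6139397 to 12772373 counts. No 2 libraries of the same group agreed within sampling noise. Diet was tested on all genes with the quasi-likelihood test of edgeR 4.0.16 (R 4.3.3; TMM, filterByExpr, two-sided, Benjamini-Hochberg, threshold 0.05), and tested on simulated data. SE is the absolute log2 fold change divided by the square root of F. Shares of the library and of the 28 core α-defensins were compared by exact permutation (20 regroupings). DESeq2 1.42.0 and limma-voom (limma 3.58.1) were alternatives. The genes planned to be named were the members, the other genes of the first 12, ranks 13 and 14 and the next α-defensin. To these came up to 3 called genes of each list and the 5 genes of most constant ratio to Defa24 (0.5 added to counts). The lists held 0 called genes, so the list genes named above go beyond this plan. The members and lists were chosen with earlier results of these data known. Protein sequences were not used here.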

Additional observations from a re-analysis of the deposited data

How the results depend on the processing

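The 7 diet estimates were recomputed under 13 alternatives each. Of the 91 values, 89 kept their direction and stayed short of the threshold and 2 reversed, both with total counts only: Defa30 at -0.27 and Defa38 at -0.17 on the log2 scale. No member was called in any of the 13. A fit without standard diet replicate 3 and zinc depleted diet replicate 1 together was also tried after the values were seen and called many genes, some members among them. It is not used here, because those 2 libraries were picked on the measured values. The number of genes called over the whole table was 0 in the main analysis, 76 without the filter on low counts, 6 with DESeq2 and from 0 to 28 when a library was left out (28 without standard diet replicate 3), and the cause was not tested. Leaving out a library gave log2 fold changes from 0.75 to 1.70 for Defa24, 0.12 to 1.18 for Defa30, 0.40 to 1.45 for Defa39, 0.28 to 1.18 for Defa38, 1.34 to 2.28 for Defa21, 1.09 to 2.20 for Defa22 and 0.58 to 1.31 for Defa29, in most cases lowest without zinc depleted diet replicate 3 and highest without standard diet replicate 3. With the replicate number as a block (replicate block), 0 genes were called, 962 had an unadjusted p under 0.05 and Defa24 was at 1.06. Libraries of the same number had correlations of 0.15, -0.06 and 0.25, and those of different numbers had correlations from -0.28 to 0.25. The labels name no pairing, and these values cannot decide whether libraries of the same number share more than that number. The family percentages kept their direction in all 70 alternatives, though the difference of Defa39 moved from -1.04 to -0.15 percentage points without standard diet replicate 2. The difference in the library share of the 7 members was 5.13 percentage points and ranged from 2.14 (without zinc depleted diet replicate 3) to 8.78 (without zinc depleted diet replicate 1). It was 4.54 with totals without Rn18s-rs5 and mitochondrially encoded genes, and 7.67 with totals without Lyz1 and Itln1. Of the 6 neighbouring pairs in the order of mean CPM, 5 held per kilobase of the canonical transcript, per kilobase of all annotated exons, and per specific 75-base or 100-base start. Within single libraries, 5 held in standard diet replicate 1 and in zinc depleted replicates 1 and 2, and 4 in standard diet replicate 3.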
